A study of Mus musculus with 25 samples.

Results

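The genes described here are those of the primary cilium, the single non-motile projection in which vertebrate cells run the Hedgehog pathway. They were chosen by name: every symbol that begins with Ift, Bbs or Tctn followed by a number, plus 18 listed genes for the cilium's motors, its base and its membrane. The rule found 43 genes of the 24015 in each of the 2 deposited expression tables. The 43 comprise 11 subunits of intraflagellar transport complex B (IFT-B), 3 of complex A (IFT-A), 3 of the kinesin-2 motor, 2 of the dynein-2 motor, 6 of the BBSome, 2 BBS chaperonin-like proteins, 9 transition zone proteins, 2 EvC zone proteins, 2 centriole proteins and 3 proteins of ciliary membrane traffic and lipids. The rule itself uses names and no measured value, although the list was drawn up with earlier results of these data known.

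RNA was sequenced from 8 mouse basal cell carcinomas (BCC) and in 9 libraries of ASZ001, a mouse BCC line labelled resistant. The tumours arose in C57BL6 mice that carried Ptch+/-, p53 fl/fl and K14 Cre-ER, and 4 were labelled sensitive and 4 resistant. Every tumour mouse carried the same alleles and received a Smo inhibitor by mouth, so there is no untreated or wild-type tumour group. The labels give no mouse age. Keratin 14 is a basal keratinocyte gene, so its promoter drives the Cre recombinase in epithelial cells and not in the other cells of a tumour. The ASZ001 cells, a single line, received vehicle, CCG-1423 or vismodegib, with 3 libraries each. Vismodegib inhibits Smo, the receptor-like protein that switches on the Hedgehog pathway. CCG-1423 inhibits transcription through MRTF and SRF, a pair of factors that couple the actin cytoskeleton to gene expression and that the series names in its title. The labels give neither dose nor time for either compound. Nothing in the labels says whether replicates came from separate mice or cultures, so p-values reflect the scatter of these libraries alone, which may be technical.

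A primary cilium grows from the mother centriole, and its axoneme is built by IFT trains that kinesin-2 carries to the tip and dynein-2 carries back. The transition zone at its base gates which proteins enter, and the BBSome carries membrane receptors out. In Hedgehog signalling Ptch1 leaves the cilium, Smo enters it, and GLI factors pass through its tip before they reach the nucleus. BCC is a tumour driven by that pathway. Promoters of cilium genes often hold an X-box, a site with 2 mirrored arms bound by RFX factors.

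The members' promoters are shown first because the X-box is the known shared element of cilium gene promoters, and the rule did not use it. RefSeq promoters (GRCm38.p6, 250 bases before to 50 after the start) matched 38 of the 43 members. Capitals mark the matched motif, lower case its flanks, and each sequence reads 5′ to 3′ on the gene's own strand. The 5 members with a full X-box are Bbs7 (first base at position -121 from the start site), Ift57 (-60), Mks1 (-24), Tctn3 (-140) and Tctn1 (37 bases after the start).
Bbs7 (chr3:36613457-36613550, minus strand): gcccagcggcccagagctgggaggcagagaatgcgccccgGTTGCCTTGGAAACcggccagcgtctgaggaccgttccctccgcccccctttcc
Ift57 (chr16:49699194-49699286, plus strand): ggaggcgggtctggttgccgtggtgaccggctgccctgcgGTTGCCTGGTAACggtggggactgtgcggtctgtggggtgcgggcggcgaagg
Mks1 (chr11:87853151-87853214, plus strand): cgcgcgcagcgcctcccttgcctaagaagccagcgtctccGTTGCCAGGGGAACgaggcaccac
Tctn3 (chr19:40612319-40612411, minus strand): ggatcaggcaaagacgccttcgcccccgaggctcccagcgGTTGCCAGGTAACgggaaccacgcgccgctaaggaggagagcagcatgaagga
Tctn1 (chr5:122264411-122264440, minus strand): gcgctaggctgtgactGTTGCCCGGGCAAC

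The full X-box was searched on both strands as GTTNCCNNGGNAAC, GTTNCCNGGNAAC or GTTNCCNNNGGNAAC. It was held by 5 of 38 members (13.2%), against 150 of 16775 genes with a promoter entry (0.894%). A gene counted where any of its entries held the motif. A looser form, GTNNCCNNNGNAAC, lay in 9 members (23.7%) and in 2.69% of genes. Both forms can fall on the same bases: 4 members held both, and 10 (26.3%) held at least 1, against 3.04% of genes. The half-site GTTGCC lies within many of these matches, and it occurred in 19 members (50%) and in 14.0% of genes. The CCAAT box (CCAAT) occurred in 63.2% of members and 42.1% of genes. No member's promoter held the GLI motif GACCACCCA, which 0.25% of genes held, nor the CArG box of SRF, which 1.67% held. These are letter matches in a window of fixed length, and they do not show that a factor binds.

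**Figure D1:**
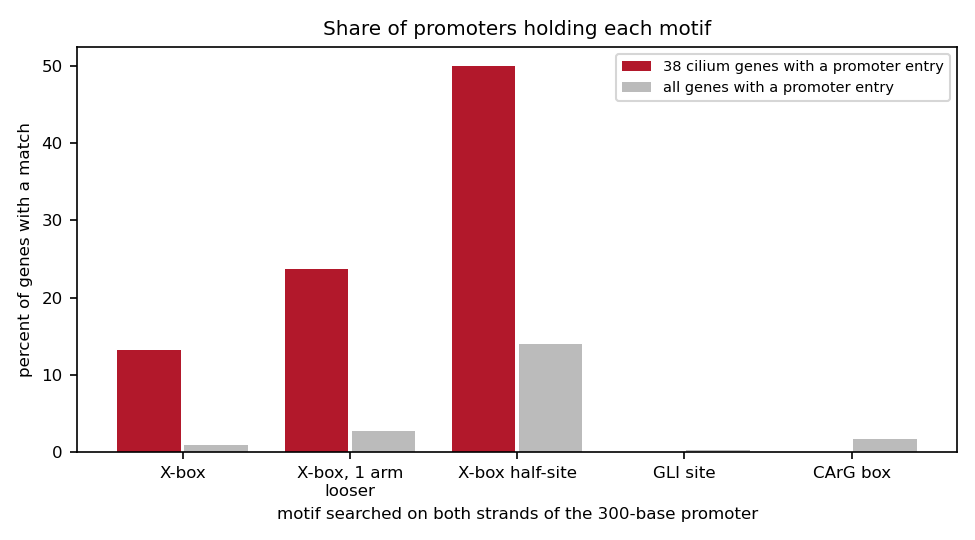
Percent of genes (y axis) whose promoter entries hold each motif (x axis), for the 38 cilium members with an entry and for all 16775 genes with an entry. The full X-box is in 13.2% of members and 0.894% of genes, while the GLI and CArG motifs are in no member.

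A further set of promoter sequences is shown because their genes gave the largest or the most opposed responses to CCG-1423. B9d2, a transition zone gene, holds a looser X-box that begins 17 bases after its start, and a further promoter entry of B9d2 holds none. Ift22 holds a pair of looser X-boxes at -63 and -33. Rpgrip1l holds none of the X-box forms or the half-site. Evc and Evc2 lie head to head with 1597 bases between their starts, and Evc holds a half-site at -183 on the opposite strand while Evc2 holds none.
B9d2 (chr7:25680788-25680817, plus strand): aacctgctGTTGCCCCAGCAACagtcgggg
Ift22 (chr5:136907900-136908149, plus strand): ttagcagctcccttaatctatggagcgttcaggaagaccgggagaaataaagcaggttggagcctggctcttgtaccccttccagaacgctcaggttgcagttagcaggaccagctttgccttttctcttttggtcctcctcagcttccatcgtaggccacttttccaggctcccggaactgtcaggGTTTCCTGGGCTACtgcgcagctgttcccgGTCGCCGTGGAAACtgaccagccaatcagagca
Rpgrip1l (chr8:91313223-91313472, minus strand): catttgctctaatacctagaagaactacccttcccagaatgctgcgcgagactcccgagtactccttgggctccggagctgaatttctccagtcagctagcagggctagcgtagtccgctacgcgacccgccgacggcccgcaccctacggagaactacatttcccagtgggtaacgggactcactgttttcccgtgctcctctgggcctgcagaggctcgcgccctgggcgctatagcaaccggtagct
Evc (chr5:37336882-37337131, minus strand): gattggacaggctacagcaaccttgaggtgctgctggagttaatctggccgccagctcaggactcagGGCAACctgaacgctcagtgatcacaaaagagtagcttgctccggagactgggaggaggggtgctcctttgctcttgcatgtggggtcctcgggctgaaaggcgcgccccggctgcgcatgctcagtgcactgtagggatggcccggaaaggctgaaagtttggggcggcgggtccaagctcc
Evc2 (chr5:37338228-37338477, plus strand): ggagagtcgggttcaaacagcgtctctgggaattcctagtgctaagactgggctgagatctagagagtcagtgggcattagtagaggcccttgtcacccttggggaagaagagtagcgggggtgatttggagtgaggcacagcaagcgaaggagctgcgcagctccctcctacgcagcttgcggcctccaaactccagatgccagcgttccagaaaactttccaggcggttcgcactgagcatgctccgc

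Values are normalized counts, that is, read counts that the authors divided by 1 size factor per library. Reads assigned to genes ranged from 8111252 to 14161398 in the sensitive tumours, 17537094 to 20014426 in the resistant tumours and 30455530 to 44017757 in the cell libraries. The keratinocyte markers were present throughout: their 8 genes summed to 1333418 to 1364875 normalized counts in vehicle cells and 34886 to 226473 in the tumours. The library labelled sensitive tumour 4 lay on the side of the resistant tumours in many genes. Sensitive tumours 1 to 3 all lay above the other 5 tumours in 21.0% of 15076 genes, and all below in 23.5%. Tumour results are therefore given with and without sensitive tumour 4. Differences are on the scale of log2(normalized count + 1), which understates changes of low values. They were tested with limma over all genes and adjusted by the Benjamini-Hochberg method, and a gene passed at an adjusted p below 0.05. Standard errors come from that model, with 3 libraries in each cell group and 4 in each tumour group.

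With CCG-1423, most cilium genes fell: 28 of the 43 members passed as lower than in vehicle, 9 passed as higher and 6 did not pass. CCG-1423 moved most of the transcriptome. The 37 members that passed (86.0%) stood beside 85.3% of the 12775 genes tested, so the share that changed was near the background. The direction differed from the background: 65.1% of members were lower against 42.6% of genes, and 20.9% were higher against 42.8%. By at least 1.5-fold 22 members changed (51.2%, against 48.4% of genes): 19 (44.2%) fell and 3 (6.98%) rose, where 25.2% and 23.2% of all genes did. The median difference over the members was -0.33, against 0.003 over all genes tested. These shares describe the list and were not tested against other lists.

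**Figure D2:**
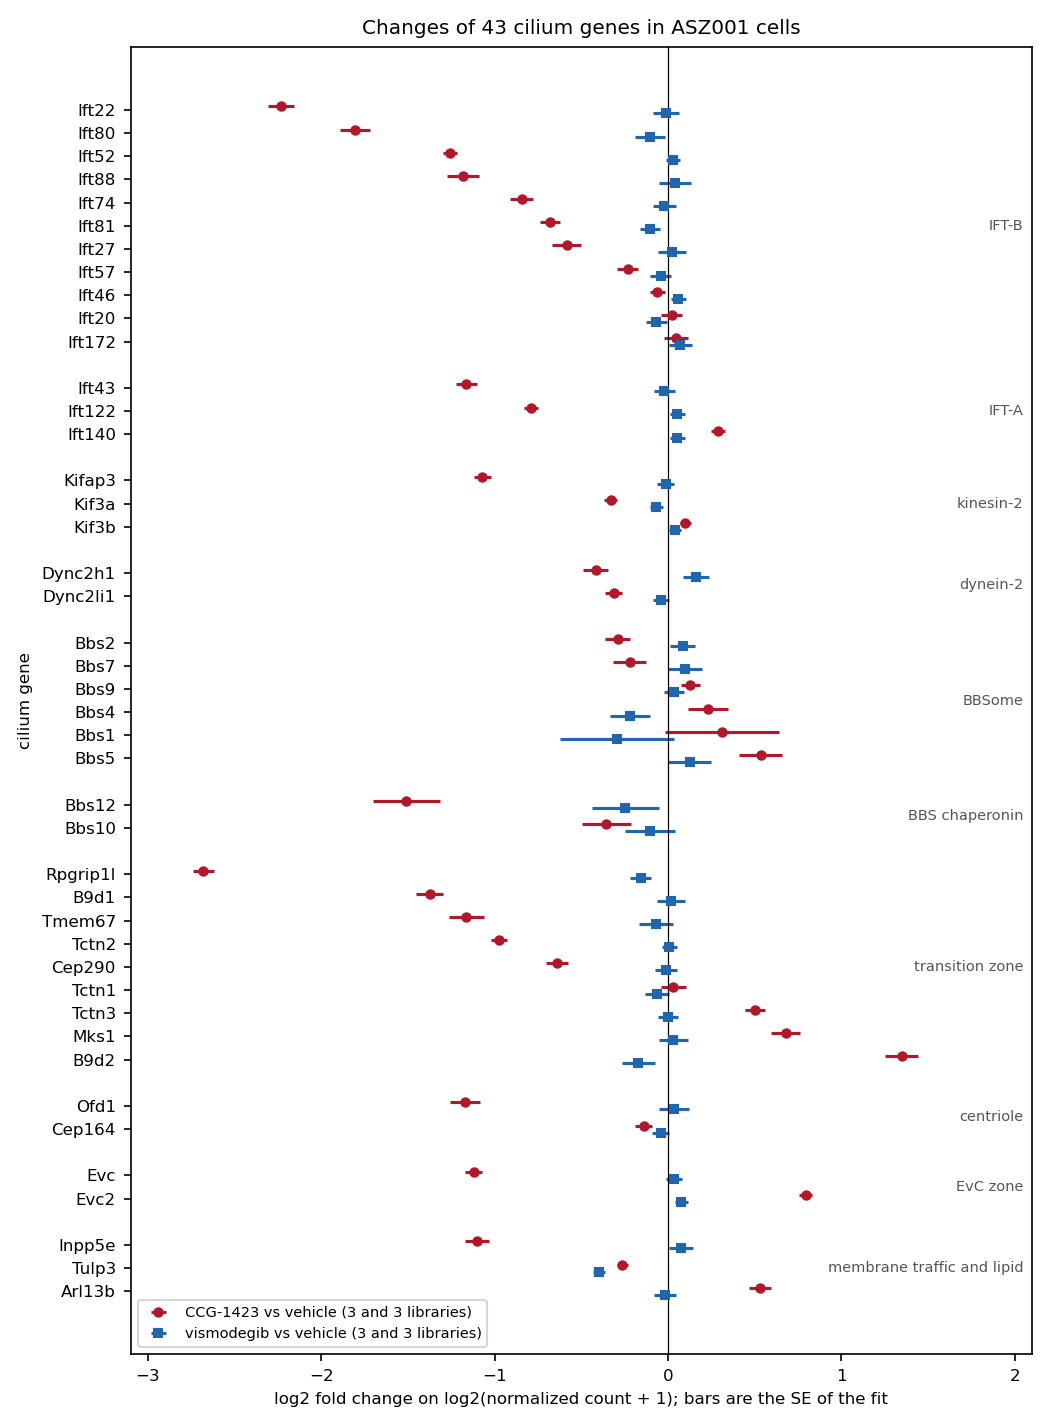
Log2 difference from vehicle (x axis) of all 43 members, grouped by role, with CCG-1423 as red circles and vismodegib as blue squares and bars for 1 SE. CCG-1423 values run from -2.68 for Rpgrip1l to 1.35 for B9d2, and vismodegib values stay between -0.40 and 0.16.

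**Figure D3:**
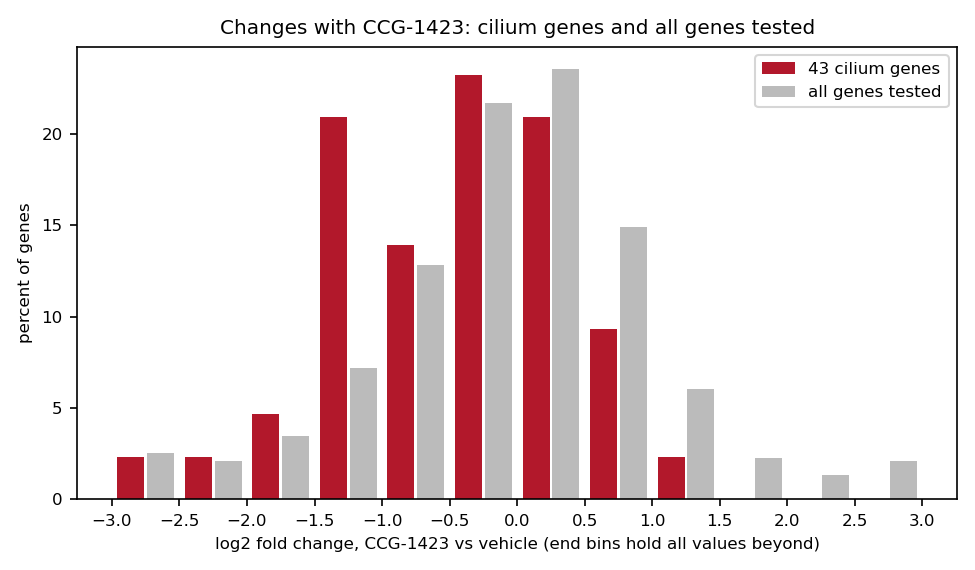
Percent of genes (y axis) in bins of 0.5 of the log2 difference between CCG-1423 and vehicle (x axis), for the 43 members and for all 12775 genes tested. The bin from -1.5 to -1.0 holds 20.9% of the members and 7.2% of genes.

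Among IFT-B subunits, which carry cargo towards the tip, 8 of 11 fell and none rose. Of all genes tested 42.6% passed as lower and 42.8% as higher. The counts per role, here and below, cover few genes and were not tested against those shares. Ift22, a small GTPase-like subunit, had 679, 684 and 704 normalized counts in the vehicle libraries, 134, 161 and 144 with CCG-1423 and 722, 673 and 657 with vismodegib. All CCG-1423 values lay far below the vehicle values, and the gene fell by 2.23 ± 0.07 on the log2 scale (SE; limma, adjusted p = 1.38e-13). Ift80, an IFT-B subunit whose mutation in people causes a short-rib skeletal disease, had 1514, 1453 and 1496 normalized counts in the vehicle libraries, 463, 349 and 476 with CCG-1423 and 1380.0, 1424 and 1353 with vismodegib. It fell by 1.81 ± 0.09 (adjusted p = 1.21e-11), again without overlap. Ift52, part of the IFT-B core, had 2423, 2345 and 2238 normalized counts in the vehicle libraries, 1005, 948 and 974 with CCG-1423 and 2289, 2397 and 2463 with vismodegib. The 3 CCG-1423 libraries were close to each other and well below vehicle, a fall of 1.26 ± 0.04 (adjusted p = 1.66e-13). Ift88, the subunit disrupted in the Oak Ridge polycystic kidney mouse and needed to grow a cilium, had 249, 255 and 219.6 normalized counts in the vehicle libraries, 101, 105 and 112 with CCG-1423 and 251, 237 and 255 with vismodegib. It fell by 1.18 ± 0.09 (adjusted p = 6.57e-09).

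The other IFT-B subunits moved less. Ift74 and Ift81, which together bind tubulin, changed by -0.84 and -0.68, Ift27 by -0.59 and Ift57 by -0.23, and each passed as lower. Ift172, the largest subunit, had 2259, 2203 and 2279 normalized counts in the vehicle libraries, 2714, 2101 and 2197 with CCG-1423 and 2308, 2459.8 and 2321 with vismodegib. CCG-1423 library 1 was above every vehicle value and the other two were below them, and the difference of 0.05 ± 0.07 did not pass (adjusted p = 0.52). Ift20 (0.02) and Ift46 (-0.06) did not pass either. The fall covered most but not all measured subunits of the complex.

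IFT-A, which serves the return trip and brings membrane proteins in, had 2 subunits lower and 1 higher. Ift122, a core subunit, had 1795, 1769.9 and 1840.3 normalized counts in the vehicle libraries, 1087, 1044 and 994 with CCG-1423 and 1848, 1945 and 1821 with vismodegib. It fell by 0.79 ± 0.04 (adjusted p = 5.91e-11), with every CCG-1423 value below every vehicle value. Ift43 fell by 1.16 ± 0.06, while Ift140 rose by 0.29 ± 0.04.

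Among the motors, Kif3a, a motor subunit of kinesin-2, had 1523, 1606 and 1605 normalized counts in the vehicle libraries, 1258, 1227 and 1277 with CCG-1423 and 1493, 1553 and 1474 with vismodegib. Its groups did not overlap, but the fall was small at 0.33 ± 0.04 (adjusted p = 1.06e-06). Kifap3, the kinesin-2 adaptor, fell more, by 1.07 ± 0.05, and Kif3b, the partner motor subunit, rose by 0.10 ± 0.03. Dync2h1, the heavy chain of dynein-2, had 526, 596 and 581 normalized counts in the vehicle libraries, 456, 399 and 419 with CCG-1423 and 680.0, 644 and 582 with vismodegib. Dync2h1 fell by 0.42 ± 0.07 (adjusted p = 6.91e-05) and the light intermediate chain Dync2li1 by 0.31 ± 0.05. Both motors therefore had members lower with CCG-1423, with Kif3b as the exception.

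The BBSome, the coat that moves receptors out of the cilium, showed no shared direction: of 6 subunits 2 rose (Bbs5 0.53, Bbs9 0.13), 2 fell (Bbs2 -0.29, Bbs7 -0.22) and 2 did not pass. Bbs1, the subunit most often mutated in Bardet-Biedl syndrome, was low in these cells, with 17.2, 14.9 and 11.3 normalized counts in the vehicle libraries, 21.2, 14.7 and 18.5 with CCG-1423 and 6.71, 16.4 and 13.3 with vismodegib. The groups overlapped, and the difference of 0.31 ± 0.33 did not pass (adjusted p = 0.38). Bbs4 had a difference of 0.23 ± 0.12 that did not pass (adjusted p = 0.0712). The chaperonin-like proteins that help to assemble the BBSome both fell. Bbs12 had 68.6, 64.9 and 75.8 normalized counts in the vehicle libraries, 21.2, 28.6 and 22.3 with CCG-1423 and 48.1, 56.1 and 74.6 with vismodegib. It fell by 1.51 ± 0.19 (adjusted p = 2.15e-06), and Bbs10 fell by 0.35 ± 0.14. The calls of Bbs7, Bbs9, Bbs10 and the centriole gene Cep164 were the least firm: each was lost in 5 to 11 of 17 other settings.

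The transition zone held both the largest fall and the largest rise of all 43 members. Rpgrip1l, a scaffold that anchors the zone's modules, had 1543, 1618 and 1623 normalized counts in the vehicle libraries, 237, 261 and 246 with CCG-1423 and 1475, 1522 and 1302 with vismodegib. It fell by 2.68 ± 0.06 (adjusted p = 2.11e-15), and no CCG-1423 value came near the vehicle values. B9d1 and B9d2 are partners with the same B9 domain in the complex that closes the ciliary gate, and they moved apart. B9d1 had 514, 517 and 516 normalized counts in the vehicle libraries, 174, 208 and 215 with CCG-1423 and 497, 534 and 538 with vismodegib. B9d2 had 190.3, 175 and 178 normalized counts in the vehicle libraries, 408, 516 and 467 with CCG-1423 and 158, 152 and 173 with vismodegib. B9d1 fell by 1.37 ± 0.08 (adjusted p = 1.28e-10) whereas B9d2 rose by 1.35 ± 0.09 (adjusted p = 1.70e-09), each without overlap of the groups.

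Mks1, the third B9 protein, rose by 0.68 ± 0.08, and Tmem67, a membrane receptor of the same complex, fell by 1.16 ± 0.10. The tectonics, secreted or membrane proteins of the zone, split as well: Tctn2 fell by 0.97 ± 0.05 and Tctn3 rose by 0.50 ± 0.06. Tctn1 had 315, 320.3 and 330.5 normalized counts in the vehicle libraries, 316, 353 and 319 with CCG-1423 and 312, 314 and 298 with vismodegib. These overlapped, and the difference of 0.03 ± 0.07 did not pass (adjusted p = 0.686). Cep290, which links the microtubules to the membrane, had 530.1, 550.2 and 595 normalized counts in the vehicle libraries, 372, 356 and 344 with CCG-1423 and 583, 548 and 529 with vismodegib, a fall of 0.64 ± 0.06 (adjusted p = 1.47e-07). Of the 9 members in the zone, 5 fell, 3 rose and 1 did not pass, where 42.6% of all genes tested fell and 42.8% rose.

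**Figure D4:**
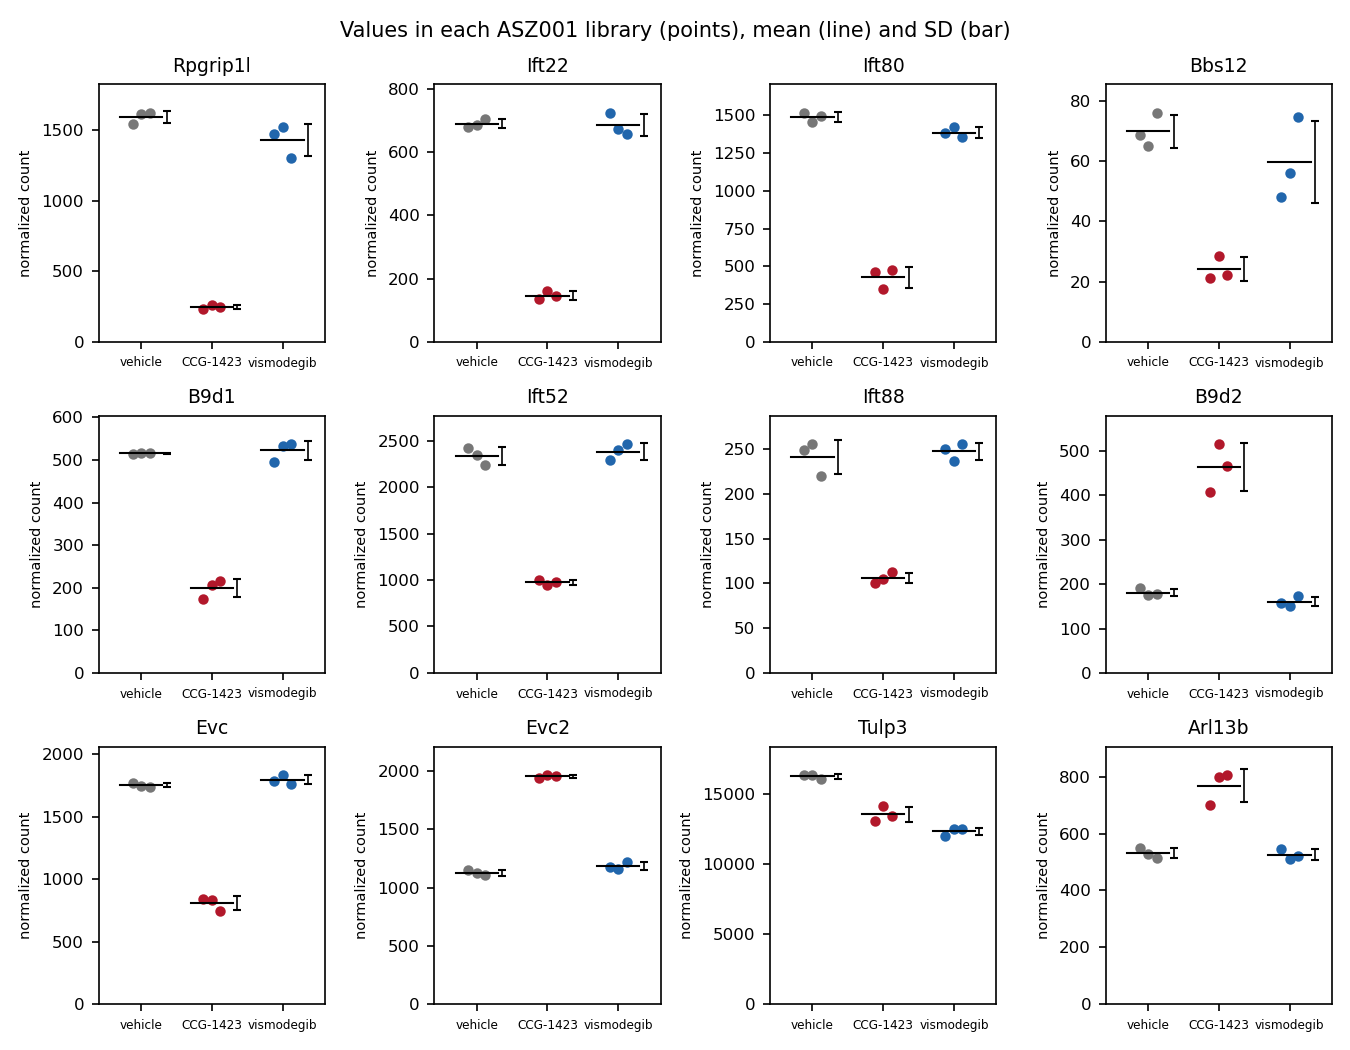
Normalized counts (y axis) of 12 members in the vehicle, CCG-1423 and vismodegib libraries (x axis), with a point per library, a line at the mean and a bar for the SD (n = 3). Vehicle and vismodegib points lie close together in most panels, while the CCG-1423 points lie below them for Rpgrip1l, Ift22 and Ift80 and above them for B9d2 and Evc2.

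Evc and Evc2 form a complex at the base of the cilium that passes the signal from Smo on to the GLI factors, and they moved in opposite directions. Evc had 1772, 1743 and 1741 normalized counts in the vehicle libraries, 844, 832 and 742 with CCG-1423 and 1788, 1833 and 1764 with vismodegib. Evc2 had 1149, 1121 and 1106 normalized counts in the vehicle libraries, 1938, 1966 and 1959 with CCG-1423 and 1172, 1163 and 1223 with vismodegib. Every CCG-1423 value of Evc lay below, and every one of Evc2 above, the vehicle values. Evc fell by 1.12 ± 0.05 (adjusted p = 2.99e-12) and Evc2 rose by 0.80 ± 0.04 (adjusted p = 1.28e-11).

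Paired starts were looked at for the other members too. A tested neighbour starts head to head within 1000 bases of 6 members, 15.8% of the 38 with a promoter entry, against 13.9% of tested genes. Rpgrip1l shares such a region with Fto, which had 3977, 3779 and 3801 normalized counts in the vehicle libraries, 4689, 4876 and 4922 with CCG-1423 and 3937, 4093 and 4048 with vismodegib and a difference of 0.33, where that of Rpgrip1l was -2.68. By contrast the differences of Ofd1 and Trappc2 were -1.17 and -1.23, and those of Bbs12 and Cetn4 -1.51 and -1.02. For Cep290 and Tmtc3 the values were -0.64 and 0.20, for Ift140 and Cramp1l 0.29 and 0.95, and for Ift20 and Tnfaip1 0.02 and 0.08. The labels do not say whether reads were counted by strand, and without strand overlapping transcripts cannot be told apart.

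The 2 centriole genes both fell, as did 42.6% of all genes tested. Cep164, a distal appendage protein that docks the mother centriole at the membrane, had 1115, 1177 and 1179 normalized counts in the vehicle libraries, 1111, 1031 and 1011 with CCG-1423 and 1098, 1192 and 1083 with vismodegib. Its lowest vehicle and highest CCG-1423 libraries were nearly equal, and the fall was 0.14 ± 0.05 (adjusted p = 0.0181). Ofd1, a satellite and distal centriole protein, fell by 1.17 ± 0.08. Of the membrane genes, Inpp5e, the phosphatase that sets the lipid composition of the cilium, had 945, 963 and 859 normalized counts in the vehicle libraries, 475, 412 and 402 with CCG-1423 and 905, 1005 and 1002 with vismodegib. Inpp5e fell by 1.10 ± 0.07 (adjusted p = 4.34e-10). Arl13b, the GTPase used most often to stain cilia and needed to bring Inpp5e there, had 551, 528 and 514 normalized counts in the vehicle libraries, 701, 798 and 806 with CCG-1423 and 547, 509 and 520.1 with vismodegib. It rose by 0.53 ± 0.06 (adjusted p = 9.62e-07), so this marker of the cilium moved against most other members. Tulp3, the adaptor that loads receptors onto IFT-A, had 16364, 16384 and 16106 normalized counts in the vehicle libraries, 13069, 14170.2 and 13487 with CCG-1423 and 12058, 12518 and 12514 with vismodegib. It fell by 0.26 ± 0.03 (adjusted p = 1.43e-06), and it was also the member that responded to vismodegib.

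Members with and without the half-site both held genes that fell. Those with GTTGCC in the promoter had 10 lower, 6 higher and a median of -0.14 with CCG-1423, and the 19 without it had 13 lower, 3 higher and a median of -0.64. Over all genes tested 42.6% were lower, 42.8% were higher and the median was 0.003. The counts by half-site describe the list and carry no test, so no effect of the half-site is claimed.

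Other cilium genes were listed by the machine they belong to. With CCG-1423, 42.6% of all genes tested passed as lower and 42.8% as higher. Most lists are short, and no list here or below was tested against those shares. Of the other IFT and BBSome subunits 9 of 14 fell and 2 rose, with Ttc30b, an IFT-B subunit, at -1.66 and Wdr35, an IFT-A subunit, at -0.84. Of the other motor genes 5 of 8 fell and none rose, among them Dynll1 at -1.27 and the dynein-2 intermediate chain Wdr34 at -0.62. Of 16 other transition zone genes 7 rose and 4 fell, with Tmem231 at 1.31 and Cc2d2a at -1.73. Of 17 centriole and basal body genes 6 rose and 6 fell, with Poc1b at 1.06 and Pcm1 at -0.59. Of 12 genes for small GTPases and lipid-anchored cargo 5 rose and 5 fell, and Tbc1d30, a Rab8 GTPase-activating protein, had the largest change at -2.62.

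Among ciliary membrane and signalling genes 4 of 10 rose and 6 fell, with Gli3 at 1.14, Pkd2 at -1.23 and Gli1, the usual readout of the pathway, at -1.72. In the list made for cilium disassembly 5 of 10 genes rose and 5 fell, with the mitotic kinases Aurka at 1.38 and Nek2 at 1.09 and the actin regulator Cttn at -1.14. Of 6 RFX and FOXJ1 factors 5 rose, with Rfx1 at 0.85, and Rfx5 fell at -0.76. Motile cilium genes were near absent, at summed levels of 67.0 to 90.5 normalized counts in all 9 cell libraries, with 1 of 3 tested genes higher and 2 lower.

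Other features of the cells moved with these changes. Proliferation genes rose in 9 of 10 cases, with Top2a at 0.94 and Cdk1 at 0.86, and their summed level was 23727 to 25301 in vehicle, 37237 to 40793 with CCG-1423 and 23591 to 26802 with vismodegib. Cilia are resorbed before mitosis, as background, and the part of proliferation in the cilium genes' change was not tested. Keratinocyte markers fell in 7 of 8 cases, with Krt5 at -2.66 and Krt15 at -6.27, and their sum dropped to 294510 to 304670 with CCG-1423. Sums of endothelial markers were 889.6 to 913 in vehicle and 270.4 to 319.9 with CCG-1423, those of immune markers 418 to 465 and 783 to 952, and those of muscle markers 53.1 to 67.9 and 7.42 to 12.1. Fibroblast marker sums were 370.4 to 399.5 and 345 to 379, and melanocyte marker sums stayed within 21.6 to 38.5 in all 9 libraries. These sums can hide opposite changes, and few of the markers were high enough to be tested in this single line. Of 2 immune markers tested 1 rose and 1 fell, and of 6 fibroblast markers tested 2 rose and 3 fell. The 2 endothelial markers and the 1 muscle marker tested fell, and neither of 2 melanocyte markers passed. The part of these shifts in the members' values was not tested either.

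With vismodegib, cilium genes stayed near vehicle. Only Tulp3 passed, with 12058 to 12518 normalized counts against 16106 to 16384 in vehicle. The groups did not overlap, and Tulp3 fell by 0.40 ± 0.03 (limma, adjusted p = 1.33e-06). That is 1 of 43 members (2.33%), where 5.5% of all genes tested passed and 3.92% passed as lower. No member passed at 1.5-fold or more, against 0.595% of genes. Unadjusted p-values were below 0.05 for 3 members (6.98%) and 18.5% of genes.

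The next members by p were Rpgrip1l at -0.16 ± 0.06 (adjusted p = 0.167), Dync2h1 at 0.16 ± 0.07 (adjusted p = 0.251), Evc2 at 0.08 ± 0.04 (adjusted p = 0.307) and Bbs4 at -0.22 ± 0.12 (adjusted p = 0.341), and none of these passed. For the key genes of each machine the differences were 0.04 ± 0.09 for Ift88, 0.07 ± 0.07 for Ift172, 0.05 ± 0.04 for Ift122, -0.07 ± 0.04 for Kif3a, -0.06 ± 0.07 for Tctn1, -0.01 ± 0.06 for Cep290 and -0.04 ± 0.05 for Cep164. Those of Evc, Arl13b, Inpp5e and Bbs1 were 0.04 ± 0.05, -0.02 ± 0.06, 0.07 ± 0.07 and -0.30 ± 0.33. For 41 of 43 members the 95% interval of the difference lay within 1.5-fold in either direction. The exceptions were the low genes Bbs12 and Bbs1, the latter with an interval from -0.998 to 0.41.

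Scaling to total reads instead moved the median of all genes by 0.08, and 7 members then passed, 6 higher and 1 lower, where the size factors gave 0 higher and 1 lower. Over all genes that scaling turned 202 higher and 501 lower calls into 2923 and 306. In the same vismodegib libraries Gli1 fell by 2.28, and proliferation genes and keratinocyte markers had no call. Small falls also passed for the dynein light chain Dynll1 (-0.26), the centriole gene Cep97 (-0.20), Gli2 (-0.23), Gli3 (-0.15) and Trp73 (-0.29). Trp73 was placed in the disassembly list, and its part in disassembly was not examined. A small rise passed for Nedd9 (0.18), a scaffold of Aurora A kinase in cilium disassembly.

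Set directly against vismodegib, CCG-1423 gave lower values for 26 members and higher values for 9, and 35 of 43 passed (81.4%, against 84.8% of genes, with 42.4% lower and 42.4% higher). At 1.5-fold or more 3 were higher and 18 lower, 48.8% of members against 48.3% of genes (23.1% higher, 25.2% lower). This comparison uses the same CCG-1423 libraries as the one with vehicle, so it is no independent evidence, and the compounds' doses and times are not known to match. Rpgrip1l was lower by 2.52 ± 0.06 (adjusted p = 3.89e-15), Ift22 by 2.22 ± 0.07, Ift80 by 1.70 ± 0.09, B9d1 by 1.39 ± 0.08, Ift52 by 1.29 ± 0.04, Bbs12 by 1.26 ± 0.19 and Ift88 by 1.22 ± 0.09, and B9d2 was higher by 1.52 ± 0.09. Tulp3, lower than vehicle with both compounds, was higher with CCG-1423 than with vismodegib by 0.13 ± 0.03 (adjusted p = 0.00118). Both compounds also lowered Gli1, whose vehicle comparisons share the same 3 libraries.

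In the tumours, no cilium gene passed in limma between resistant and sensitive BCC when all 8 libraries were used. That is 0 of 43 members, where 0.113% of 15076 genes passed. At an unadjusted p below 0.05 there were 7 members (16.3%) and 25.1% of genes. edgeR called 0 members and 0 genes, and DESeq2 called 2 members and 1630 genes (10.8%). Most differences were negative: 13 members (30.2%) were above 0 against 52.0% of genes, and the median was -0.25 against 0.03. In bulk tumours, fewer cells with a cilium and less RNA per cell cannot be told apart. For 10 of 43 members the 95% interval lay within 1.5-fold, and for the rest it reached beyond that.

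The 5 members of smallest p were Bbs7, Bbs2, Ift172, Kifap3 and Tulp3, and none passed. Bbs7, a BBSome subunit, had 292, 266, 240.1 and 277 normalized counts in sensitive tumours 1 to 4 and 194, 183, 176 and 189.8 in resistant tumours 1 to 4. Every resistant tumour was below every sensitive tumour, which held for no other member (2.33% of members, and 4% of genes in that direction), and the difference was -0.53 ± 0.16 (limma, adjusted p = 0.142). Bbs2 had 595, 555, 669 and 315 normalized counts in sensitive tumours 1 to 4 and 204, 325, 312 and 308 in resistant tumours 1 to 4, a difference of -0.86 ± 0.27 (adjusted p = 0.144). Ift172 had 1363, 1667, 1987 and 1054 normalized counts in sensitive tumours 1 to 4 and 686, 909.5, 1170.0 and 921 in resistant tumours 1 to 4, a difference of -0.71 ± 0.24 (adjusted p = 0.148). In both genes sensitive tumour 4 lay below the other sensitive tumours. Kifap3 had 1068, 1026, 1166 and 739 normalized counts in sensitive tumours 1 to 4 and 601, 819, 602 and 753 in resistant tumours 1 to 4, a difference of -0.52 ± 0.19 (adjusted p = 0.161). Tulp3 went the other way, with 852, 1113, 1272 and 1895 normalized counts in sensitive tumours 1 to 4 and 1747, 1901, 2235 and 1575 in resistant tumours 1 to 4. Its difference was 0.59 ± 0.24 (adjusted p = 0.181), and here sensitive tumour 4 was above the other sensitive tumours and inside the resistant range.

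Without sensitive tumour 4, 11 members passed, 3 higher and 8 lower in the resistant tumours (25.6% of members). This fit was singled out because of that library's expression in the same data. Its p-values, here and below, are therefore descriptive and not those of an independent test. The groups left also differed in mouse sex, as given below. In that fit 40% of 15479 genes passed, so the members' share was below the background. At 1.5-fold or more 9 passed (20.9%, against 36.3% of genes): 3 rose and 6 fell, 6.98% and 14.0% of members and 18.4% and 17.9% of genes. Over either size of change 20.6% of genes were higher and 19.4% lower. For 31 of the 43 members sensitive tumour 4 lay within the range of the resistant tumours, and for 9 within that of the other sensitive tumours. These ranges span 4 and 3 libraries, so the 2 counts are not alike, and no share over all genes was taken. Sensitive tumours 1 to 3 all lay above the other 5 tumours in 10 of the 43 members, against 21.0% of genes. They all lay below in 4 members, against 23.5% of genes. Leaving out any other library gave 0 members.

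The IFT-B subunits Ift74, Ift81 and Ift172 fell by 0.90 ± 0.15 (adjusted p = 0.00216), 0.51 ± 0.16 (adjusted p = 0.0361) and 0.87 ± 0.21 (adjusted p = 0.0111). Ift74 had 539.8, 543, 472 and 246 normalized counts in sensitive tumours 1 to 4 and 272, 284, 302 and 249 in resistant tumours 1 to 4. Ift81 had 564, 593, 646 and 390.2 normalized counts in sensitive tumours 1 to 4 and 349.8, 450.3, 498 and 404 in resistant tumours 1 to 4. In each of these partners sensitive tumours 1 to 3 were the 3 highest libraries. Ift43, of IFT-A, rose by 0.78 ± 0.26 (adjusted p = 0.0403), with 219.9, 162, 171 and 361 normalized counts in sensitive tumours 1 to 4 and 344, 269, 457 and 229.5 in resistant tumours 1 to 4. The adaptor Kifap3 fell by 0.66 ± 0.16 (adjusted p = 0.0114). The BBSome subunits Bbs2 and Bbs7 fell by 1.10 ± 0.20 (adjusted p = 0.00337) and 0.51 ± 0.16 (adjusted p = 0.0327).

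The transition zone genes Rpgrip1l and B9d1, both lower with CCG-1423, differed in direction between the tumour groups. Rpgrip1l had 806, 815, 792 and 418 normalized counts in sensitive tumours 1 to 4 and 399, 518, 336 and 603 in resistant tumours 1 to 4, a fall of 0.83 ± 0.21 (adjusted p = 0.014) without sensitive tumour 4. B9d1 had 134, 126, 96.0 and 218 normalized counts in sensitive tumours 1 to 4 and 196, 204, 199.8 and 158 in resistant tumours 1 to 4, a rise of 0.68 ± 0.20 (adjusted p = 0.0268). Inpp5e had 737, 832, 730.3 and 465 normalized counts in sensitive tumours 1 to 4 and 536, 450.3, 484 and 492 in resistant tumours 1 to 4, a fall of 0.64 ± 0.13 (adjusted p = 0.00634), and Tulp3 rose by 0.80 ± 0.18 (adjusted p = 0.00927). In all 4 genes sensitive tumour 4 lay outside the range of sensitive tumours 1 to 3.

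**Figure D5:**
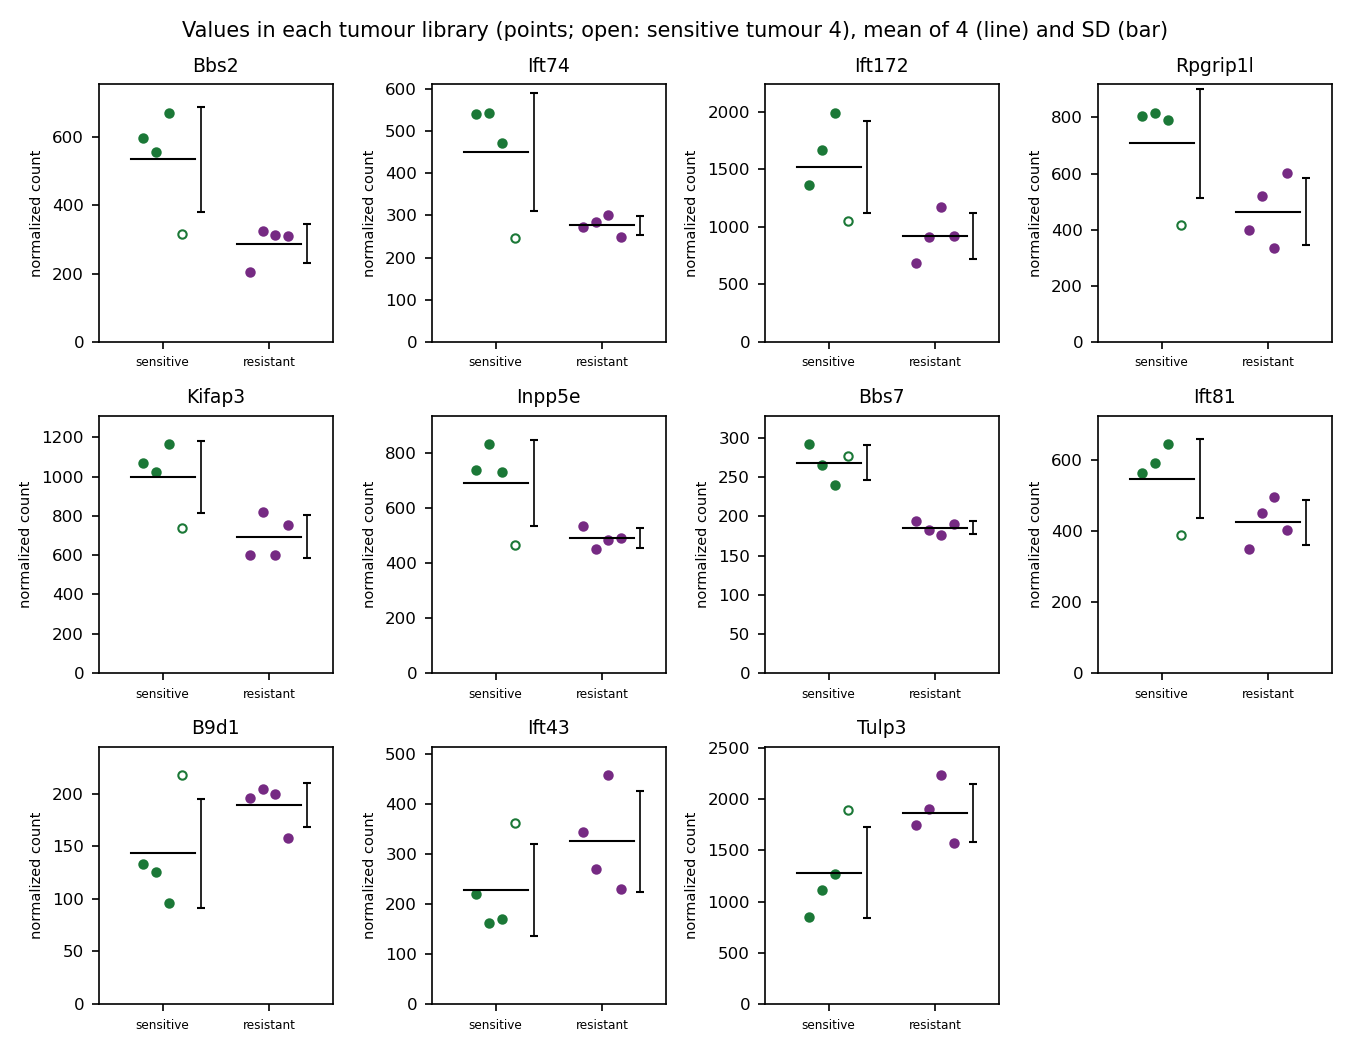
Normalized counts (y axis) of the 11 members that passed without sensitive tumour 4, in sensitive and resistant tumours (x axis), with a point per library, the open point being sensitive tumour 4, a line at the mean of 4 and a bar for the SD. The open point lies among or near the resistant tumours in most panels, and in the Bbs7 panel it lies with the sensitive tumours.

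The other members with values in every comparison passed in neither tumour fit. Ift88 had 256, 268, 286 and 247 normalized counts in sensitive tumours 1 to 4 and 259, 329, 288 and 348 in resistant tumours 1 to 4. Ift122 had 425, 555, 616 and 433 normalized counts in sensitive tumours 1 to 4 and 325, 398, 456 and 479 in resistant tumours 1 to 4. Kif3a had 1166, 1059.7, 1192 and 1454 normalized counts in sensitive tumours 1 to 4 and 1218, 989.5, 904 and 1476 in resistant tumours 1 to 4. In these IFT and motor genes the groups overlapped. Dync2h1 had 2383, 2146, 2968 and 1908 normalized counts in sensitive tumours 1 to 4 and 1635, 2223, 1779.6 and 2221 in resistant tumours 1 to 4. Bbs1 had 369, 363, 328 and 303 normalized counts in sensitive tumours 1 to 4 and 169.6, 348, 343 and 269 in resistant tumours 1 to 4. Tctn1 had 557, 482, 563 and 469 normalized counts in sensitive tumours 1 to 4 and 304, 502, 413 and 456 in resistant tumours 1 to 4. Their groups overlapped as well, with resistant tumour 1 the lowest of the 8 in each. Cep290 had 1218, 1144, 765 and 933 normalized counts in sensitive tumours 1 to 4 and 915, 636, 904 and 923 in resistant tumours 1 to 4. Cep164 had 641, 641, 517 and 789.6 normalized counts in sensitive tumours 1 to 4 and 821, 754, 969 and 613 in resistant tumours 1 to 4. These base-of-cilium genes showed no order by group. Evc had 279.7, 289.6, 268 and 269.6 normalized counts in sensitive tumours 1 to 4 and 191, 272, 303 and 168 in resistant tumours 1 to 4. Evc2 had 454, 526, 498 and 347 normalized counts in sensitive tumours 1 to 4 and 317, 446, 429 and 306 in resistant tumours 1 to 4. Arl13b had 381, 466, 575 and 383 normalized counts in sensitive tumours 1 to 4 and 584, 479.9, 436 and 469 in resistant tumours 1 to 4. Evc and Evc2, which CCG-1423 moved apart, had differences of -0.28 ± 0.22 and -0.29 ± 0.21 between the tumour groups, and of -0.30 ± 0.23 and -0.41 ± 0.18 without sensitive tumour 4.

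No gene of the other cilium lists passed with 8 libraries. Without sensitive tumour 4, the counts of higher and lower genes were 1 and 3 of the other IFT and BBSome subunits, with Ttc30b at -1.86 and Arl6 at 1.52, 2 and 1 of the motor genes, 3 and 2 of the transition zone genes, 1 and 3 of the centriole genes and 3 and 2 of the small GTPase genes. They were 5 and 3 of the membrane and signalling genes, with Gli2 at 2.89 and Gli1 at 1.98, 3 and 0 of the disassembly genes, 0 and 2 of the RFX factors and 1 and 3 of 12 motile cilium genes. In that fit 20.6% of all genes tested passed as higher and 19.4% as lower, and the lists were not tested against those shares.

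Cell makeup and proliferation moved with the same split of the tumours. Proliferation genes summed to 25735 normalized counts in sensitive tumour 4, against 3004 to 4916 in the other 3 sensitive tumours and 10929 to 25485 in the resistant ones. In the same order, keratinocyte marker sums were 82809.5, 157131 to 226473 and 34886 to 85718. Immune marker sums were 21719.7, 3504 to 6479 and 8119 to 20123. Sums of fibroblast markers were 101355, 90098 to 195774 and 88812 to 128676. Those of endothelial markers were 2311, 1517 to 1766 and 1965 to 3825, and those of muscle markers 245, 26.5 to 58.7 and 227 to 1251. Melanocyte sums were 226, 355 to 379 and 259 to 301, and motile cilium sums 925, 1313 to 2878 and 1003 to 1334. Reads of 4 Y-linked genes were present in sensitive tumours 1 to 3 and at 0 in the remaining 5 tumours, which had 60770.5 to 80520.5 normalized counts of Xist. Xist was lower but not absent in sensitive tumours 1 to 3, at 1252 to 2939 normalized counts. Mouse sex therefore ran with the same split, and the part of sex, cell makeup and proliferation in the members' values was not tested.

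Levels in tumours and cells are set side by side only as RPM, reads scaled to a common total at genes, since the tables were normalized separately, and no test was made across them. Bbs1 was at 19.7 ± 6.25 RPM (SD, n = 4) in resistant tumours, 25.6 ± 3.55 (n = 4) in sensitive tumours and 0.399 ± 0.084 (n = 3) in vehicle cells. Dync2h1 was 8.74 times higher in resistant tumours than in vehicle cells. It was at 137 ± 25.5 in resistant and 176 ± 36.9 in sensitive tumours, so its high level was not particular to resistance. Bulk tumours hold other cell types too, and their part in these levels was not tested. Tulp3 showed the reverse order, at 129 ± 20.6 in resistant tumours and 449 ± 6.64 in vehicle cells.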

How the data were processed

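RNA libraries of 8 tumours and 9 of ASZ001 cells were used, and 8 exome samples were not analysed here. RNA was extracted with a Qiagen kit and sequenced in pairs, per the labels' protocols. The authors' files hold a normalized signal per gene, and per the submitters' processing notes TopHat, DESeq and the mm9 build were used, with versions and counting rule not given in the sources used here. In each deposited column 100% of values were whole multiples (within 0.01 read) of 1 value per library, so whole reads were recovered. Replicates differed beyond sampling noise (chi-square per degree of freedom 12.8 to 173 in tumours, 1.81 to 38.9 in cells).

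Genes with at least 10 normalized counts in 4 tumour or 3 cell libraries were tested on log2(normalized count + 1) with limma 3.58.1 (R 4.3.3), trended, with all 9 cell libraries in 1 fit. A gene passed at a Benjamini-Hochberg adjusted p below 0.05 over all genes tested; a second rule also asked for 1.5-fold. On the recovered reads edgeR 4.0.16 (quasi-likelihood) called 0 genes between tumours, 10938 with CCG-1423, 739 with vismodegib and 10873 between the compounds; DESeq2 1.42.0 was another alternative. Further alternatives were pseudocounts 0.5 and 4, no filter, scaling to total reads, a replicate block, only the 2 groups compared, and leaving out each library.

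Values per library are given, in each comparison, for the 8 passing members of largest change with a mean of at least 50 normalized counts (the 5 of smallest p where fewer than 5 passed) and for 14 members picked for their roles. The exception is Bbs4, among the 5 of smallest p with vismodegib, for which only the differences are given. Members and lists were chosen with earlier results of these data known, and the promoter motifs, neighbours and Y-linked genes were examined after the values were seen.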

Additional observations from a re-analysis of the deposited data

Results flagged for a closer look

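In 7 of 86 sets of 4 tumours (43 members in each group), or 8.14%, 1 library stood apart, the gap to its nearest neighbour taking a larger part of the set's range than Dixon's critical value for 4 samples allows. For independent sets of normally distributed values chance gives about 1 in 20. These sets share the same libraries, so 1 unusual library can give many flags, and 8.14% cannot be weighed against that rate. Sensitive tumour 4 accounted for 5: Rpgrip1l at 418 normalized counts against 792 to 815 in the other sensitive tumours, Ift20 at 904 against 651 to 675, Ift46 at 591 against 450.1 to 473, Ift52 at 820.0 against 608 to 638, and Kif3b at 1608 against 949.6 to 1037. In resistant tumour 1, Bbs2 was at 204 against 308 to 325, and in resistant tumour 2, Cep290 was at 636 against 904 to 923. Cell groups of 3 are too small for this check.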

How the results depend on the processing

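The count of members passing with CCG-1423 stayed between 34 and 37 under all 17 alternatives, and that of CCG-1423 against vismodegib between 35 and 37. Leaving out each library in turn gave 34 to 36, 35 to 37, 1 with vismodegib and 0 to 11 in the tumours, where 11 came without sensitive tumour 4. In the tumours DESeq2 called 2 members (Bbs2 and Bbs7, both lower; 1630 genes in all) where limma called 0. With vismodegib, 7 members passed after scaling to total reads (25.3% of all genes did) and 2 with only the 2 groups compared (13.8% of genes), where Rpgrip1l was added; the cause was not tested. With single cell libraries left out, the calls lost in the CCG-1423 comparison were those of Bbs7, Bbs9, Bbs10 and Cep164.

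Signs turned for members that did not pass. After scaling to total reads vismodegib gave 0.0154 for Kif3a, 0.0186 for Tctn1, 0.0692 for Cep290, 0.0400 for Cep164 and 0.0667 for Arl13b. Leaving out single libraries gave ranges across 0: for Kif3a in tumours -0.234 to 0.00201, with CCG-1423 for Ift172 -0.0646 to 0.120 and Tctn1 -0.0197 to 0.0594, with vismodegib for Ift88 -0.0273 to 0.0813, Bbs1 -0.540 to 0.0483, Cep290 -0.0504 to 0.0340 and Arl13b -0.0446 to 0.0114, and between the compounds for Ift172 -0.137 to 0.0482. Without CCG-1423 library 1, Ift172 passed as lower than with vismodegib.

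With a replicate block 0, 37, 1 and 35 members passed in the tumour, CCG-1423, vismodegib and compound comparisons, the same counts as without it. Replicates with the same number did not deviate together over all genes tested (correlation -0.15 to 0.12 in tumours, -0.04 to 0.04 in cells). With so few libraries this check cannot detect a weak pairing or a pairing limited to few genes. Depth limits the lowest members: Bbs1 and Bbs12 have the widest intervals in the cells.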
